A study of Mus musculus with 12 samples.

Results

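The circadian clock output genes are 10 genes that the core clock drives or that feed back on it. They are the PAR bZIP transcription factor genes Hlf, Tef and Dbp, the Period genes Per1, Per2 and Per3, the REV-ERB nuclear receptor genes Nr1d1 and Nr1d2, the helix-loop-helix repressor gene Bhlhe40, and Ciart. They were chosen by name from the 16300 genes of the deposited table, matched by gene number. All 10 were present and all 10 passed the filter on low counts, which left 11763 genes. The list was drawn up with levels from these same libraries in view, and which values led to each gene was not recorded. Their levels and fold changes are therefore given as a description and none of their p-values is printed. Where a member is said to be past the threshold, or is marked so in a plot, that describes the fit and is not read as support.

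The libraries came from NIH-3T3, an immortal fibroblast line from mouse embryos, in 4 groups of 3. Con cells received PBS, STC1 cells 100 ng/mL recombinant stanniocalcin-1 (a secreted glycoprotein hormone), TGFb1 cells 10 ng/mL TGF-β1 (a cytokine that drives fibroblasts to make matrix), and TS cells both proteins. Every group was harvested after 24 h, and the design text calls the 3 samples of a group biological replicates. The single line has no genetic change between groups, and the labels give neither a synchronising step nor a time of day.

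In textbook accounts the proteins CLOCK and BMAL1 (gene Arntl) bind E-boxes, with the letters CACGTG, and switch on the Period, Cryptochrome, REV-ERB and PAR bZIP genes. PER and CRY proteins then inhibit CLOCK and BMAL1, while REV-ERB proteins repress Arntl at RORE sites, so that Arntl and the E-box genes peak at opposite times of day. The PAR bZIP proteins act at D-boxes, which NFIL3 represses. Fibroblasts hold such clocks cell by cell, the cells of a dish drift apart unless something sets them together, and TGF-β is known to reset fibroblast clocks through Bhlhe40. With 1 harvest time, a shift in phase, a change in amplitude and a change in how many cells keep the same time cannot be told apart.

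To show where the clock could act on these genes, the 250 bases before the annotated start were taken from RefSeq (build GRCm38.p6), which had an entry for 8 of the 10 genes. The E-box (CACGTG), the D-box (TTATGTAA or TTACGTAA), the RORE and the core TGACG of the cAMP response element were searched on both strands. The promoters of Hlf and Per1, the genes whose TGFb1 and TS libraries all lay below the Con libraries, are shown with those of Ciart, which held the most E-boxes, and Per3, the member with D-boxes. All run 5′ to 3′ on the strand of the gene, with matches to the searched motifs in capitals. They lie at chr11:90390918-90391167 (minus strand), chr11:69098699-69098948 (plus strand, the first of its 2 listed starts), chr3:95882229-95882478 (minus strand) and chr4:151044666-151044915 (minus strand).
Hlf: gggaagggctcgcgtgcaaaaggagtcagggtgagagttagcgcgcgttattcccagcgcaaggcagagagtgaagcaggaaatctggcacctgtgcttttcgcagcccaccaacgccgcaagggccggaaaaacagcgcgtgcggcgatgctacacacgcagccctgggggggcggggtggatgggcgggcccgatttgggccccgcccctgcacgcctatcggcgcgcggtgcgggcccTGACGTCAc
Per1: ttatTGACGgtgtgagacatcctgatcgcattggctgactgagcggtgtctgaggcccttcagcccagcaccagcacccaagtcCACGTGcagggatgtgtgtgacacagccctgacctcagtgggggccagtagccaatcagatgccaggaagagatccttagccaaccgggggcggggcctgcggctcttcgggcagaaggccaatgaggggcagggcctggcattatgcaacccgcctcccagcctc
Ciart: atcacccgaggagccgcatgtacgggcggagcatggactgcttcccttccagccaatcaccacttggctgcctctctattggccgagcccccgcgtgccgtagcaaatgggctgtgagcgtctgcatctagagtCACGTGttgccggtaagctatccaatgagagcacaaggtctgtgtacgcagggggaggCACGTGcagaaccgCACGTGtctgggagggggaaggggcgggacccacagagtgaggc
Per3: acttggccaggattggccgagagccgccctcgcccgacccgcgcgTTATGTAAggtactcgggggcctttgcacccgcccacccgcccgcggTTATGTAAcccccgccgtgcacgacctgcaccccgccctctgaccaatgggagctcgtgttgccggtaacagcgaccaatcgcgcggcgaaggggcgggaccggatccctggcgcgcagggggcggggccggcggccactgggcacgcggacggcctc

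An E-box lay in the window of 3 of the 8 genes, Ciart, Per1 and Tef, against 6.86% of the 27025 genes with a listed promoter. Ciart held 3 of them, the nearest ending 39 bases before the start, and Per1 held 1, beginning 166 bases before it. A D-box lay in 1 of the 8, Per3, which held 2, against 1.1% of genes. The core TGACG lay in Hlf and Per1, against 19.79% of genes. In Hlf 2 copies on opposite strands overlapped within the last 9 bases before the start, the only overlap among the searched motifs in the promoters of the clock genes examined. No RORE was found in the 8 windows, and 0.4% of genes held one. These are matches of letters in a short window, and sites further off were not examined.

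Per transcript length, Per1, a core repressor that also answers acute signals, stood highest at 16.04 CPM (counts scaled to library size) per kilobase, averaged over the 12 libraries. Bhlhe40 followed at 8.75, Tef at 4.86, Nr1d2 at 4.21, Hlf at 3.63 and Nr1d1 at 2.53 CPM per kilobase. Per2 at 1.37, Per3 at 1.13, Dbp at 0.857 and Ciart at 0.576 CPM per kilobase were the lowest. Lengths are those of the longest coding transcript of each gene, so genes close in this order should not be taken as ranked. All further levels are CPM and compare a gene with itself. Dbp, with 16.9 to 39.1 counts in a library, and Ciart, with 12 to 28, were close to the limit of what this depth resolves.

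For Hlf the highest group mean was 1.397 times the lowest, a ratio close to those of the sparse Dbp (1.39) and Ciart (1.338) and above those of the other members. It encodes hepatic leukaemia factor, an activator at D-boxes. It stood at 28.0, 22.3 and 23.3 CPM in the Con libraries (replicates 1, 2 and 3) and at 24.5, 17.5 and 19.5 in the STC1 libraries. It stood at 19.8, 17.8 and 20.2 CPM in the TGFb1 and at 16.9, 17.9 and 17.9 in the TS libraries. Every TGFb1 and every TS library lay below every Con library, while STC1 replicate 1 lay inside the Con range. The group means ran from 24.5 ± 3.05 CPM (SD, n = 3) in Con through 20.5 ± 3.62 in STC1 and 19.2 ± 1.29 in TGFb1 to 17.6 ± 0.580 in TS. STC1 and TGFb1, neighbours in that order, overlapped, and so did TGFb1 and TS. Against Con, the log2 fold change of Hlf was -0.26 (SE 0.107) in STC1, -0.35 (SE 0.110) in TGFb1 and -0.49 (SE 0.111) in TS. The STC1 value moved with the libraries used. Leaving out Con replicate 1 gave -0.15 and leaving out STC1 replicate 2 gave -0.16, while leaving out STC1 replicate 1 gave -0.41, past the threshold in edgeR. TS differed from TGFb1 by -0.13 (SE 0.118), with overlapping ranges.

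The other PAR bZIP genes differed less or were measured less precisely. Tef, thyrotroph embryonic factor, stood at 21.8, 21.8 and 20.6 CPM in Con, 19.8, 19.8 and 22.4 in STC1, 23.2, 21.4 and 22.0 in TGFb1, and 21.6, 20.8 and 21.3 in TS. All 4 groups overlapped, and the TS against Con log2 fold change was -0.01, with a 95% interval from -0.14 to 0.12. Dbp, the D-box binding protein gene often used to read clock phase, stood at 1.41, 2.28 and 1.93 CPM in Con, 1.59, 1.75 and 1.66 in STC1, 1.42, 0.985 and 1.82 in TGFb1, and 1.47, 1.48 and 1.09 in TS. The Con and TS ranges of Dbp overlapped, although all TS libraries lay below all STC1 libraries. Its TS against Con log2 fold change of -0.46 had a 95% interval from -0.94 to 0.01, so a change as large as that of Hlf, or almost none, was not distinguishable at this depth.

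Per1 was the member measured most precisely, with 1204 to 1542 counts in a library. It stood at 82.9, 77.7 and 77.6 CPM in Con, 78.8, 76.0 and 71.2 in STC1, 75.5, 70.4 and 72.9 in TGFb1, and 70.8, 72.0 and 73.5 in TS. All TGFb1 and TS libraries lay below all Con libraries, and the STC1 libraries spanned both. The means were ordered as for Hlf, from 79.4 ± 3.02 CPM in Con to 75.3 ± 3.87 in STC1, 72.9 ± 2.53 in TGFb1 and 72.1 ± 1.38 in TS (SD, n = 3). The difference was small: the log2 fold change was -0.08 (SE 0.0395) in STC1, -0.12 (SE 0.0400) in TGFb1 and -0.14 (SE 0.0399) in TS against Con, and the TS level was 0.907 times that of Con. The STC1 value of Per1 was -0.04 without Con replicate 1 and also -0.04 without STC1 replicate 3.

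Per2 and Per3, the other Period genes, did not separate the groups. Per2, a core repressor, stood at 9.83, 8.85 and 7.89 CPM in Con, 6.65, 7.92 and 7.45 in STC1, 8.18, 7.19 and 8.93 in TGFb1, and 8.78, 7.36 and 6.77 in TS. Per3, which modulates the loop, stood at 8.11, 7.28 and 6.55 CPM in Con, 7.23, 5.66 and 6.04 in STC1, 7.94, 6.55 and 6.52 in TGFb1, and 6.06, 6.28 and 6.95 in TS. Both had their highest group mean in Con and their lowest in STC1, with overlapping ranges throughout. The largest log2 fold change of Per2 was -0.27 (SE 0.107) in STC1 against Con, and that of Per3 was -0.22 (SE 0.114) in the same comparison.

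Of the other feedback repressor genes, Nr1d1, Nr1d2 and Bhlhe40 had overlapping groups with small differences of either sign, and Ciart had lower means in the treated groups with wide intervals. Nr1d1, which encodes REV-ERBα, stood at 7.58, 6.29 and 6.70 CPM in Con, 5.75, 6.14 and 7.21 in STC1, 7.71, 7.12 and 6.80 in TGFb1, and 7.03, 6.68 and 7.74 in TS. Nr1d2, for REV-ERBβ, stood at 19.7, 18.7 and 19.5 CPM in Con, 20.5, 20.7 and 18.7 in STC1, 19.5, 19.3 and 18.4 in TGFb1, and 21.6, 19.6 and 19.3 in TS. Neither separated any pair of groups. In STC1 against Con the log2 fold change of Nr1d1 was -0.10 (SE 0.112). In TS against Con their log2 fold changes were 0.05 (95% interval -0.17 to 0.27) and 0.06 (-0.07 to 0.20). Bhlhe40, the gene through which TGF-β is known to reset the clock, stood at 26.2, 24.8 and 27.1 CPM in Con, 27.8, 29.9 and 26.3 in STC1, 26.9, 27.1 and 26.5 in TGFb1, and 26.8, 29.4 and 28.2 in TS. Its groups overlapped, and its log2 fold change in TGFb1 against Con was 0.04, with a 95% interval from -0.08 to 0.16. As every library was taken at 24 h, an earlier change in Bhlhe40 could not be seen. Ciart, a repressor of CLOCK and BMAL1, stood at 1.504, 1.05 and 1.52 CPM in Con, 1.17, 0.962 and 1.03 in STC1, 0.935, 1.17 and 0.940 in TGFb1, and 0.850, 0.679 and 1.60 in TS, and its lowest and highest values over all 12 libraries were both in TS. Its log2 fold change against Con was -0.37 (SE 0.273) in STC1, -0.42 (SE 0.278) in TGFb1 and -0.39 (SE 0.275) in TS, and all 3 intervals held 0.

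**Figure D1:**
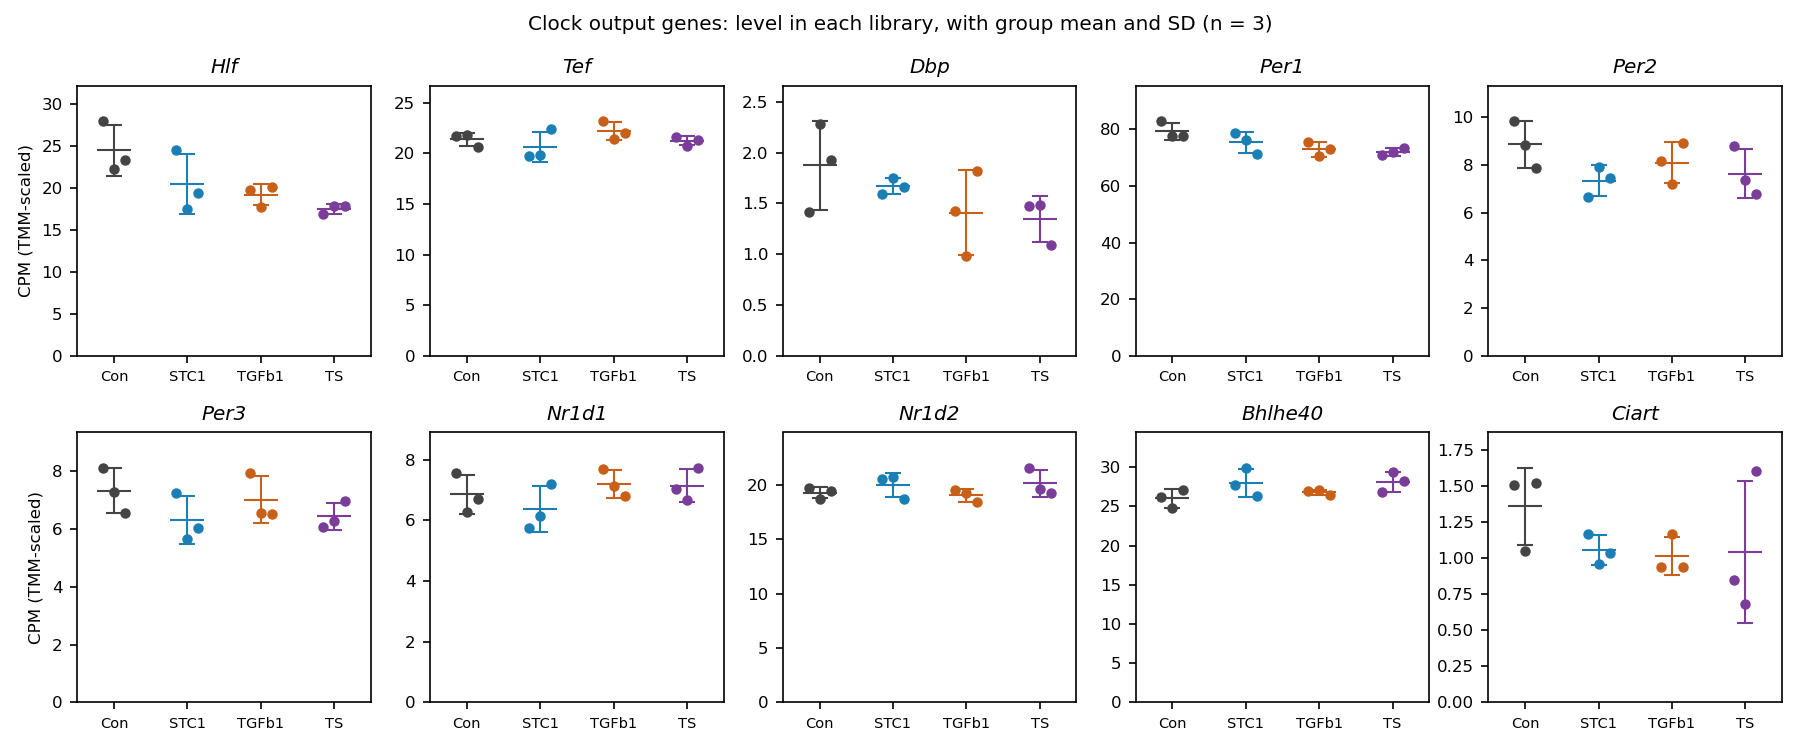
Level of each clock output gene in the 12 libraries, in CPM on TMM-scaled library sizes; points are libraries in the order of replicate 1 to 3, the bar is the group mean and the whiskers the SD (n = 3), and each vertical axis starts at 0. Hlf and Per1 are lower in every TGFb1 and TS library than in any Con library. The groups of Tef, Nr1d1, Nr1d2 and Bhlhe40 overlap, which does not show that their levels are unchanged. The ratio of the highest to the lowest group mean is 1.132 for Nr1d1, above that of Per1 (1.101). It is 1.075 for Tef, 1.057 for Nr1d2 and 1.081 for Bhlhe40.

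Gene counts place these values beside the rest of the transcriptome. In TS against Con, 2 of the 10 genes, Hlf and Per1, were past an adjusted p of 0.05 in edgeR's quasi-likelihood test, both lower, where 6.06% of all 11763 genes were past it in either direction and 2.88% were lower. DESeq2 called Per1 and gave Hlf no adjusted p. In TGFb1 against Con the edgeR count was 0, against 3.99% of all genes, with 2 at an unadjusted p under 0.05, against 17.7%. In STC1 against Con it was 0, against 0.051%, with 2 unadjusted, against 10.6%. It was 0 as well in TS against STC1, where 0.298% of genes were called, and in TS against TGFb1 and the interaction, where 0% were. No member was at an unadjusted p under 0.05 in those 3 comparisons, against 9.17%, 6.5% and 8.29% of genes. In the test of any difference among the 4 groups the count was 0, against 4.11% of genes, with 2 unadjusted, against 16.7%. DESeq2 called 0 members in all comparisons but TS against Con, though it gave an adjusted p to all 10 only in TS against TGFb1 and the interaction, and to at most 1 elsewhere.

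By range, Hlf and Per1 had all 3 TGFb1 libraries below all 3 Con libraries, where 10.9% of genes did, and all 3 TS below all 3 Con libraries, where 11.3% did. No member had STC1 and Con ranges apart, against 15.2% of genes in either direction, and none had TS and TGFb1 apart, against 10.9%. Dbp alone had TS wholly below STC1, where 7.16% of genes did. The median log2 fold change of the 10 genes was -0.13 in STC1, -0.09 in TGFb1 and -0.17 in TS against Con, beside medians within 0.01 of 0 over all genes. Negative values numbered 8, 7 and 7 of the 10 in those comparisons, against 50.9%, 51.1% and 50.1% of all genes. These 3 comparisons share the Con libraries. Con replicate 1, the most deeply sequenced library, held the highest level of 4 of the 10 members (Hlf, Per1, Per2 and Per3) and of 3 of the 8 other clock genes tested.

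**Figure D2:**
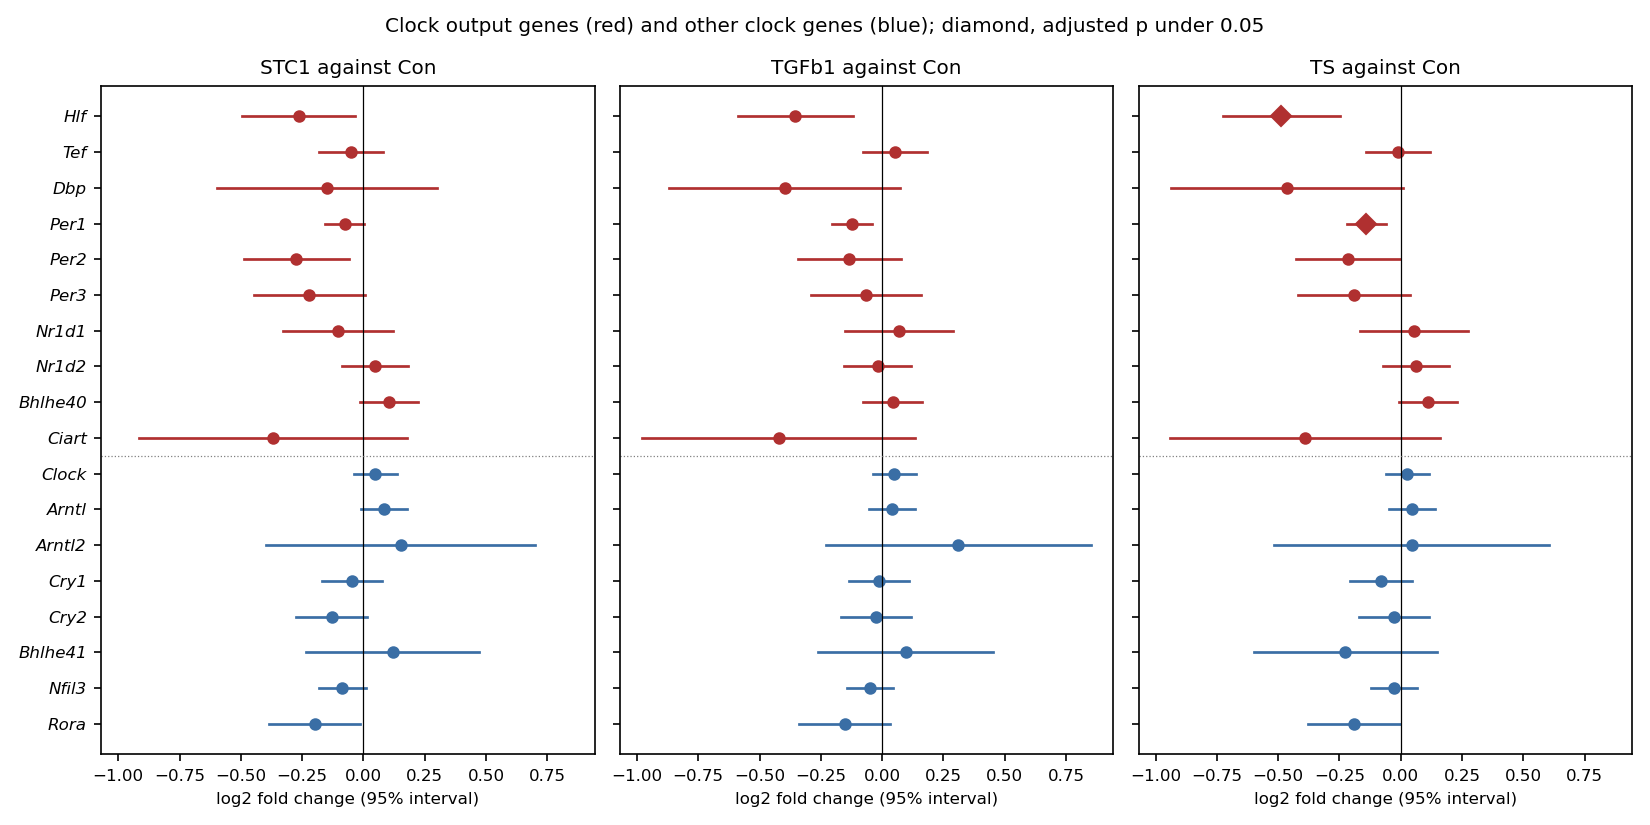
Log2 fold change against Con, with its 95% interval from the edgeR fit, for the 10 clock output genes (red) and 8 other clock genes (blue) in STC1, TGFb1 and TS; diamonds mark an adjusted p under 0.05. Hlf and Per1 in TS carry the diamonds, and Clock, Arntl, Cry1 and Nfil3 have narrow intervals that include 0.

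Single libraries bore on both genes. Without Con replicate 1 the TS against Con log2 fold change of Hlf was -0.37 (SE 0.0926) and that of Per1 -0.11 (SE 0.0437), and Per1 was no longer past the threshold. Hlf was not past it when any of the 3 TS libraries was left out (log2 fold change between -0.50 and -0.46), nor was Per1 without TS replicate 1 (-0.13) or TS replicate 2 (-0.14). The sign stayed negative for both genes in all 12 fits that left out a library. Across all genes, longer transcripts tended to be lower in TS than in Con (Spearman correlation -0.378 over 9271 genes, which are not independent replicates). After subtracting what a gene's transcript length and GC share predicted, the TS against Con log2 fold change was -0.46 for Hlf and -0.10 for Per1. The same step left Hlf at -0.26 in STC1 and -0.35 in TGFb1, but took Per1 from -0.08 to -0.03 in STC1 and from -0.12 to -0.07 in TGFb1.

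**Figure D3:**
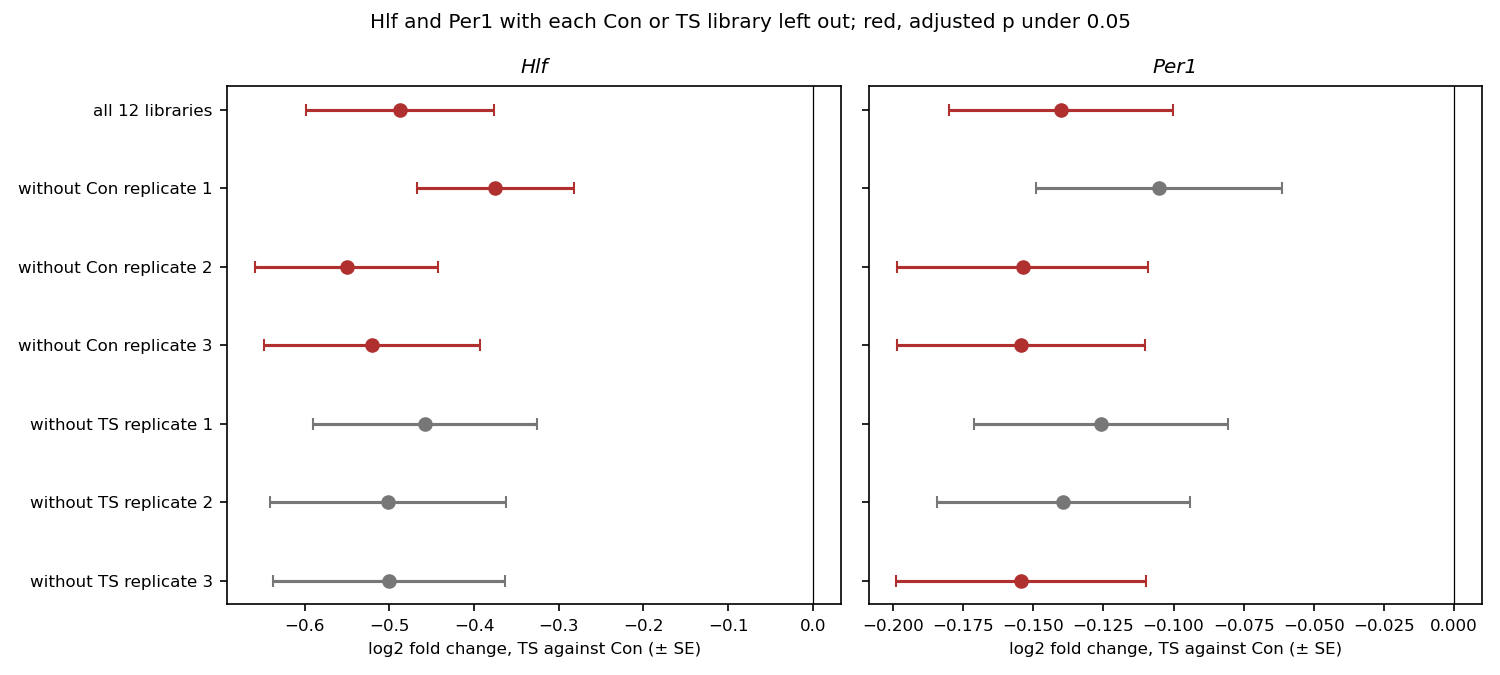
Log2 fold change of Hlf and Per1 in TS against Con, with its SE, from the fit to all 12 libraries and from fits without each Con or TS library in turn; red marks an adjusted p under 0.05, and the 2 panels have different horizontal scales. Hlf runs from -0.55 to -0.37 and Per1 from -0.15 to -0.11, all below 0.

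The 10 genes did not vary as a block. Over the 12 libraries the 45 pairs had a median Pearson r of log2 CPM of -0.0755, 20 pairs being positive, and the pairs share library and depth, so these are descriptions. Over those libraries Hlf and Per1 were the most alike (r = 0.871), and Tef and Bhlhe40 the most opposed (r = -0.629). On deviations from group means Hlf and Per1 stood at 0.693, below Hlf with Per3 (0.758) and Per1 with Per3 (0.751). Among the 11263 other named genes tested, the levels closest to the mean standardised profile of the 10 were those of Sec24c (r = 0.912), Ptms (0.903), Dtna (0.874), P2rx3 (0.87), Tctn1 (0.853) and Irx1 (0.848), and the most opposed were Haus6 (-0.902), Isg15 (-0.898) and Nip7 (-0.897). None of these is a clock gene of the lists used here, and 1 in 100 of the other genes had an r above 0.737 with that profile.

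The rest of the core loop, genes outside the 10, was tested as well. That list too was drawn up with earlier results of these data known. No gene of it passed the threshold. Of the listed genes, 8 passed the filter on low counts. By edgeR 0 of 8 were called in each of the 6 comparisons and in the 4-group test, where 0% to 6.06% of all genes were. DESeq2 called 0 too, but gave all 8 an adjusted p only in TS against TGFb1 and the interaction, and 0 to 3 of them elsewhere. At an unadjusted p under 0.05 there was 1, Rora, in STC1 and in TS against Con (10.6% and 18.8% of all genes), and 0 in the others. The smallest adjusted p by edgeR was 0.255, for Rora in TS against Con. Npas2, a partner of BMAL1, had 1 to 4 counts in a library and could not be compared.

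Of the positive arm, 3 of the 4 listed genes were tested and 0 were called, which does not show that their levels were unchanged. Arntl, which encodes BMAL1 and peaks opposite to the E-box genes, stood at 45.5 ± 2.66 CPM (SD, n = 3) in Con, 48.3 ± 1.17 in STC1, 46.9 ± 1.01 in TGFb1 and 47.0 ± 1.54 in TS. Its log2 fold change against Con was 0.08 in STC1, 0.04 in TGFb1 and 0.04 in TS, and the 95% intervals reached at most 0.18 and at least -0.05. Clock, its partner, had group means between 54.3 and 56.3 CPM, and its TS against Con log2 fold change was 0.03, with a 95% interval from -0.06 to 0.11. Arntl2, a weakly expressed relative of Arntl, was too sparse for a narrow bound, with an interval from -0.52 to 0.61 in TS against Con.

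Among the repressors outside the 10 genes, Cry1, Cry2 and Nfil3 differed little, while Bhlhe41 and the RORE factor gene Rora had group ranges apart in some comparisons. Cry1, a cryptochrome that inhibits CLOCK and BMAL1, had group means between 23.2 and 24.5 CPM and a TS against Con log2 fold change of -0.08 (95% interval -0.21 to 0.04). Cry2, its relative, had means between 18.3 and 20.1 CPM and a value of -0.03 (-0.17 to 0.12). Nfil3, the D-box repressor that opposes Hlf, Tef and Dbp, stood at 57.8 ± 4.68 CPM in Con and 56.8 ± 3.58 in TS, with a log2 fold change of -0.03 (-0.12 to 0.07). Bhlhe41, the sister gene of Bhlhe40, stood between 2.26 and 2.88 CPM with -0.23 (-0.60 to 0.15). All TS libraries of Bhlhe41 lay below all STC1 libraries (log2 fold change -0.34, SE 0.183, where 7.16% of genes did so) and below all TGFb1 libraries (-0.32, SE 0.186, where 5.44% did), and Cry1 also had TS wholly below TGFb1 (-0.07, SE 0.0630). Rora, an activator at RORE sites, stood at 10.2 ± 0.987 CPM in Con, 8.93 ± 0.283 in STC1, 9.21 ± 0.290 in TGFb1 and 8.96 ± 0.661 in TS, and its log2 fold change was -0.20 (SE 0.0932, adjusted p = 0.446 by edgeR) in STC1 and -0.19 (SE 0.0935, adjusted p = 0.255 by edgeR) in TS against Con. All 9 treated libraries of Rora, at 8.20 to 9.40 CPM, lay below the lowest Con library at 9.47, as Hlf and Per1 did in TGFb1 and TS. Libraries wholly below Con were found for 7.54% of genes in STC1, 10.9% in TGFb1 and 11.3% in TS.

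**Figure D4:**
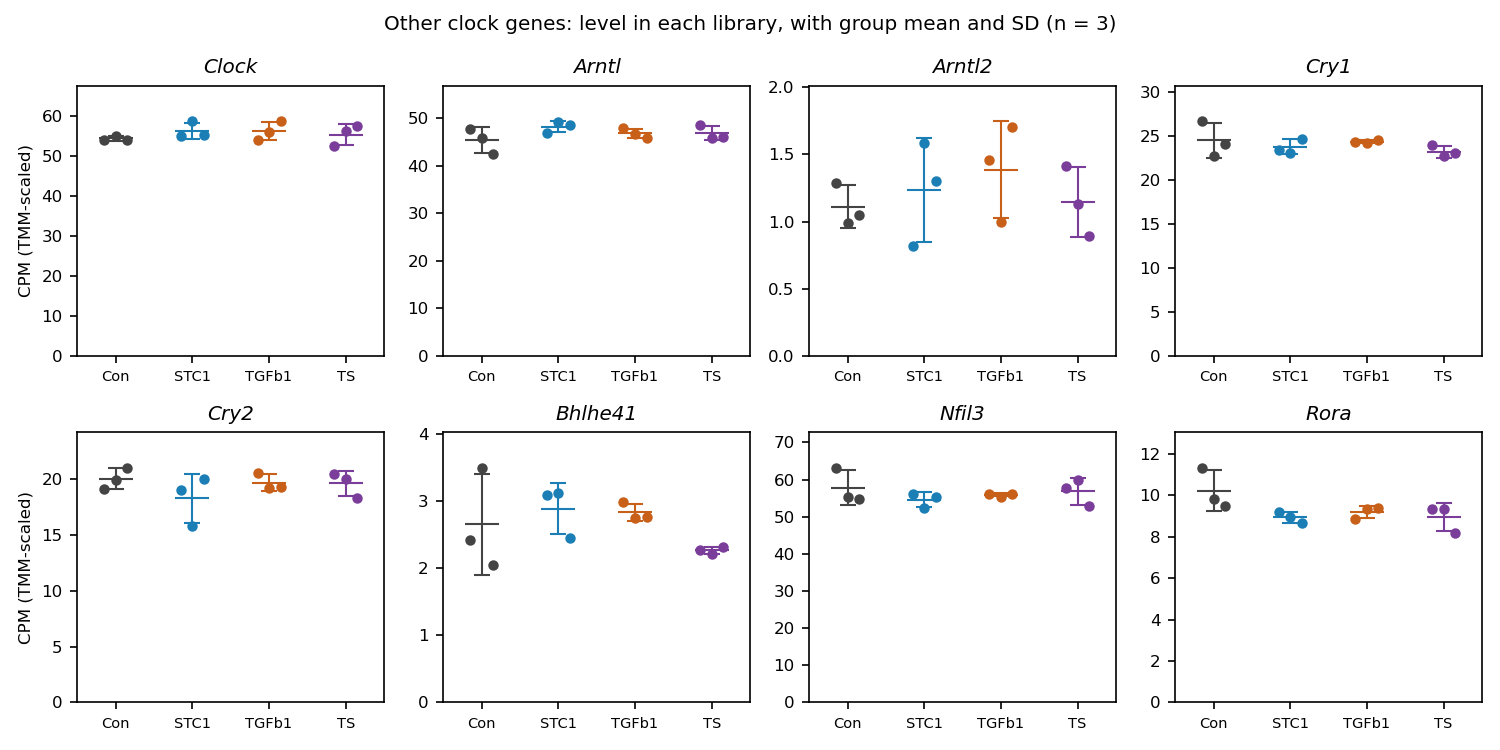
Level of 8 other clock genes in the 12 libraries, in CPM on TMM-scaled library sizes, with points as libraries, bars as group means and whiskers as the SD (n = 3); each vertical axis starts at 0. For Clock, Arntl, Cry1 and Nfil3 the ratio of the highest to the lowest group mean lies between 1.035 and 1.061. This does not show that their levels are unchanged.

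As an index, the mean log2 CPM of the 10 genes minus that of Arntl, Npas2, Clock, Cry1 and Nfil3 was taken in each library. Cry1 is not a clean opposite of the 10, since CLOCK and BMAL1 switch on the Cryptochrome genes and its window held an E-box. At 1 harvest time a phase shift could widen, narrow or leave this difference, so the index does not measure phase. The index was -0.45, -0.59 and -0.44 in Con, -0.61, -0.52 and -0.60 in STC1, -0.61, -0.57 and -0.58 in TGFb1, and -0.73, -0.58 and -0.47 in TS. The groups overlapped. Its level depended on the prior count: the means were -0.49 in Con, -0.58 in STC1, -0.59 in TGFb1 and -0.60 in TS with 2. They were -0.39, -0.45, -0.47 and -0.46 with a prior count of 0.5, where the groups overlapped too. With Npas2 left out, a choice made after its few counts were seen, the index was -1.97 ± 0.0278 in Con, -2.10 ± 0.0361 in STC1, -2.105 ± 0.0557 in TGFb1 and -2.12 ± 0.0604 in TS (SD, n = 3). Every Con library then lay above all others. Since the index contains the 10 chosen genes, no test was made of it.

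Of 21 tested kinases, ubiquitin ligases and cofactors that act on clock proteins, 1 rose and 1 fell both in TGFb1 and in TS against Con. That is 2 of 21 in each, where 3.99% and 6.06% of all genes were called. At an unadjusted p under 0.05 were 6 of 21 in TGFb1 and 5 of 21 in TS, against 17.7% and 18.8% of all genes. Whether the list differs from all genes was not tested. By edgeR 0 were called in STC1 against Con (2 at an unadjusted p under 0.05, against 10.6% of all genes). The one that fell was Gsk3b, a kinase that phosphorylates several clock proteins, from 90.4 ± 3.23 CPM in Con to 77.6 ± 0.731 in TS (log2 fold change -0.22, SE 0.0372, adjusted p = 7.39e-05 by edgeR). The one that rose was Dhx9, an RNA helicase gene, from 351.8 ± 5.54 to 374.3 ± 3.77 CPM (0.09, SE 0.0263, adjusted p = 0.0285 by edgeR). Gsk3b stayed past the threshold in TS under all 18 alternative fits, whereas in TGFb1 it was lost without Con replicate 2 or 3 or TGFb1 replicate 1 or 3 (highest adjusted p = 0.113 by edgeR). Dhx9 was lost in TS in 5 fits, those without TMM, with only the compared groups, and without Con replicate 1, TS replicate 1 or TS replicate 2 (highest adjusted p = 0.147), and in TGFb1 without Con replicate 1 (0.055). DESeq2 called both in both comparisons, and Nono, an RNA-binding cofactor of the PER proteins, in TS as well. Kdm5a, a histone demethylase gene, and Tipin, the partner of Timeless, were not called, at -0.06 and 0.13 in TS against Con.

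Other widely rhythmic genes and the immediate early and CREB target genes held 0 called genes by edgeR. Glucocorticoid targets held 1 of 6 in TGFb1 and 2 of 6, Per1 among them, in TS against Con. Of 8 tested rhythmic outputs, edgeR called 0 in each comparison, with 2 at an unadjusted p under 0.05 in STC1, 3 in TGFb1 and 2 in TS against Con, where 10.6%, 17.7% and 18.8% of all genes were. Tsc22d3, a glucocorticoid-induced gene that cycles in many tissues, had the smallest p of the 4-group test among them, at -0.18 (SE 0.0602, adjusted p = 0.0632 by edgeR) in TS against Con. Nampt, which makes a precursor of NAD, was at 0.09, Klf10 at 0.10 and Klf9 at -0.04, and Usp2 and Tspan4, which cycle in most mouse organs, were at -0.04 and 0.04. Of 8 immediate early and CREB target genes, edgeR called 0 in each comparison, with 2 at an unadjusted p under 0.05 in TGFb1 against Con and 0 in the others. In TS against Con, Fos was at 0.23 (SE 0.187), Junb at 0.05, Sik1 at -0.04 and Dusp1 at -0.11. Of 6 tested glucocorticoid targets, a list that includes Per1, the kinase gene Sgk1 rose from 416.9 ± 10.4 CPM in Con to 448.7 ± 9.27 in TGFb1 and 452.6 ± 6.82 in TS (log2 fold change 0.11, adjusted p = 0.0150, and 0.12, adjusted p = 0.00424, by edgeR). Sgk1 was lost in TGFb1 without Con replicate 1 or TGFb1 replicate 3 (highest adjusted p = 0.167) and in TS without Con replicate 1 (0.0599). DESeq2 called 0 of the rhythmic outputs and of the immediate early genes, with an adjusted p for 4 of 8 and 2 of 8 in TS against Con. Of the 6 glucocorticoid targets, 5 had negative log2 fold changes both in TGFb1 and in TS against Con, where 51.1% and 50.1% of all genes did. Sgk1 was the exception, so its sign was opposite to that of Per1. At an unadjusted p under 0.05 were 4 in TGFb1 and 3 in TS, against 17.7% and 18.8% of all genes. By edgeR 1 was called in TGFb1 and 2 in TS, against 3.99% and 6.06%. Fkbp5, also glucocorticoid-induced in textbook accounts, was at -0.01 in TS against Con.

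The libraries held between 16867600 and 18521800 expected counts, of which the 10 genes took between 0.0179% and 0.0208%. Fibroblast markers, 9 of 9 in the table, summed to between 12500 and 14300 CPM, and 8 of them passed the filter on low counts. Fap did not, with 0 to 2 counts in a library. Apart from Fap, the line showed its labelled type by these markers. The sum was 13500 to 14300 CPM in Con, 12900 to 13500 in STC1, 12600 to 13000 in TGFb1 and 12500 to 13300 in TS, so that the TGFb1 and TS libraries all lay below Con. Col1a2, at a mean of 5077 CPM over the 12 libraries, was the largest part of that sum. Of 8 tested markers, edgeR called 4 as lower in both TGFb1 and TS against Con, where 3.99% and 6.06% of all genes were called in either direction. They were the collagen genes Col1a2 and Col3a1 and the PDGF receptor genes Pdgfra and Pdgfrb, named after their values were seen. Their log2 fold changes in TS were -0.15, -0.24, -0.17 and -0.16, and S100a4 rose by 0.09 in TS. Vim and Thy1, at 0.06 and 0.03 in TS against Con, were not called. Macrophage markers (5 of 5) summed to 8.16 to 10.3 CPM, epithelial markers (3 of 5) to 0.226 to 0.906, and endothelial markers (4 of 4) to 0.113 to 0.453 CPM. The summed marker level and those collagen and PDGF receptor genes were thus lower in TGFb1 and TS, as Hlf and Per1 were. S100a4, Vim and Thy1 did not fall in TS. Unlike Hlf and Per1, Col3a1 (-0.20) and Pdgfra (-0.12) also had all STC1 libraries below Con, where 7.54% of genes did. Col1a2 (-0.08) and Pdgfrb (-0.14) overlapped Con in STC1. In STC1 against Con edgeR called 0 of the 8 markers, and DESeq2 called Col3a1 and Pdgfra. The part of the markers in the differences of Hlf and Per1 was not tested. In bulk samples, fewer cells with high clock output and less RNA per cell cannot be told apart. Dbp overlaps Sphk2 by 539 bases of exon on the opposite strand, Nr1d1 overlaps Thra by 263, and Tef and Bhlhe40 overlap antisense genes by 193 and 118, in the GENCODE annotation of GRCm38. Whether counting used strand is not given in the sources used here, so the levels of those genes may include reads of their partners.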

How the data were processed

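Poly-A RNA of 12 NIH-3T3 cultures was sequenced after MGIEasy library preparation, per the labels' protocols. The authors deposited expected counts (estimated counts, not scaled between libraries), a unit read from the values: between 88.5% and 89.1% of a library's values were whole within 1e-06. Per the submitters' processing notes the genome build was GRCm39; aligner and counter are not given in the sources used here. Gene numbers matched a RefSeq symbol for 16177 of 16300 genes. Expected counts were rounded, filtered with filterByExpr (11763 genes left), TMM-scaled and fitted over all 12 libraries, with 1 mean per group and 8 residual degrees of freedom, by edgeR 4.0.16 in R 4.3.3 (quasi-likelihood, robust). Tests were two-sided, with Benjamini-Hochberg adjustment over all tested genes and a threshold of 0.05. CPM are expected counts relative to TMM-scaled library size; log2 CPM used a prior count of 2. Intervals are 95% intervals of the fit.

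The members and lists were chosen with earlier results of these data known. Named genes were the 10 members, the tested core loop genes, up to 4 genes of each other list with the smallest p in the 4-group test, and the 6 most and 3 least similar genes; Usp2, Tspan4, Fkbp5, Nono and the fibroblast markers were named after their values were seen. No 2 replicates agreed within counting error (chi-square of their counts, per degree of freedom, 1.46 to 2.46). The fitting steps were tested on simulated data. Alternatives were DESeq2 1.42.0, no TMM, other filters, the compared groups alone, the replicate number as a block, and leaving out each library. A length and GC trend was added after seeing the data.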

Additional observations from a re-analysis of the deposited data

How the results depend on the processing

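The count of 0 among 8 other clock genes was the same under all 18 alternative fits, in each comparison that the fit gives. In STC1 against Con, TS against Con and TS against STC1, DESeq2 gave 0 of the 8 an adjusted p, so its count there could not differ. In the main fit at most 6.06% of all genes were called, so a count of 0 of 8 is near the background. The count of clock output genes past the threshold did move. In TS against Con it was 2 (Hlf and Per1), 1 with DESeq2, which gave Hlf no adjusted p, and between 0 and 2 when a library was left out. Of all genes, 6.06% were called in the main fit and 2.34% to 6.11% with a library left out. DESeq2 called 14.1% of the 3333 genes to which it gave an adjusted p. In TGFb1 against Con it was 0, and 1 without TMM (Per1), 1 with no low count filter (Hlf), 1 with only the compared groups (Hlf), and between 0 and 1 when a library was left out. The shares of all genes were 3.99% in the main fit, then 4.53%, 3.35%, 3.98% and 1.21% to 4.75% in that order. In STC1 against Con it was 0, and 1 with no low count filter (Hlf) and between 0 and 1 when a library was left out. There 0.051%, 0.351% and 0% to 0.372% of all genes were called. In the 4-group test it was 0, and 1 without TMM, 2 with no low count filter, and between 0 and 1 when a library was left out. There 4.11%, 4.29%, 3.99% and 1.57% to 4.57% of all genes were called. The cause of these moves in the count of clock output genes was not tested.

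Of 18 pairs of same-numbered libraries from different groups, 6 had a correlation of deviations above 0.1, against 2 of 36 pairs with different numbers. The correlations ran from -0.0232 to 0.245 in the same-numbered pairs and from -0.212 to 0.145 in the others. Same-numbered libraries thus deviated together more often, though not throughout, and the main fit leaves the replicate number out. With the replicate number as a block, 2 clock output genes (Hlf and Per1) were called in TGFb1 against Con and 2 in the 4-group test. In that fit 5.58% and 5.71% of all genes were called. Of 1118 fold changes of the 10 genes under an alternative, 6 moved by more than the spread between replicates, and no called one changed sign. Depth limits Dbp, Ciart, Arntl2 and Bhlhe41 most.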
